A study of Mus musculus with 32 samples.

Results

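Overexpression of endothelin-1 in the endothelium was compared with its Cre control at 16 days after induction, in small RNA libraries of mouse mesenteric artery. The comparison held 13 of the 30 libraries in the deposited table, 7 from ieET-1 mice and 6 from ieCre mice, chosen by genotype and time. All were male and 10 to 12 weeks old when tamoxifen was started. The ieET-1 mice overexpress endothelin-1, and the ieCre mice carry the tamoxifen-inducible Cre recombinase driven by the Tie2 promoter, which is active in endothelium. Both genotypes received tamoxifen under the skin at 1 mg/kg per day for 5 days, so the drug and the recombinase are shared by the groups compared. Arteries were freed of fat and veins before extraction of whole-artery RNA, in which fewer cells of a type and less RNA per cell cannot be told apart. Libraries from 8 ieET-1 and 7 ieCre mice killed 3 months after tamoxifen entered the fit only to estimate the spread and to compare the times. The strain, the makeup of the endothelin-1 transgene and its level were not given in the labels, and endothelin-1 mRNA is not measured by small RNA sequencing.

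A miRNA is a short RNA cut from a hairpin precursor and held by an Argonaute protein, which it guides to mRNAs by pairing through its seed, bases 2 to 8 from the 5' end. Members of a family share the seed and so can share targets. Each hairpin can yield a 5p and a 3p strand, of which the guide strand is usually the more abundant. Endothelin-1 is a vasoconstrictor peptide released by endothelial cells. It acts on receptors of vascular smooth muscle, a cell type in which miR-143 and miR-145 are abundant, while miR-126 is characteristic of endothelium.

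The mature sequences below (RefSeq, GRCm38.p6; 300 of the 354 tested miRNAs were matched by name) belong to the guides whose values are described below, grouped by seed. They are shown because miRNAs with a common seed can share targets. Capitals mark the seed. The let-7 guides share GAGGUAG and differ from each other after it.

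let-7c-5p: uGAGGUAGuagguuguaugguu

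let-7e-5p: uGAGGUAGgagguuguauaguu

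let-7f-5p: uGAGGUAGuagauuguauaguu

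let-7i-5p: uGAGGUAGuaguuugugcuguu

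The miR-181 guides, which lay above zero with intervals that crossed zero, share ACAUUCA.

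miR-181a-5p: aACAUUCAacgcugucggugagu

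miR-181c-5p: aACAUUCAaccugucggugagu

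Guides of miR-29 (seed AGCACCA), of miR-30 (GUAAACA) and of miR-148 and miR-152 (CAGUGCA) lay below zero. Their intervals reached or crossed zero, and 57.9% of all tested miRNAs lay below zero.

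miR-29a-3p: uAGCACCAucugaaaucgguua

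miR-29b-3p: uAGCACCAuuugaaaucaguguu

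miR-29c-3p: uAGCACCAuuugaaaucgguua

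miR-30a-5p: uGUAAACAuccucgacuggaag

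miR-30c-5p: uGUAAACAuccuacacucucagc

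miR-30e-5p: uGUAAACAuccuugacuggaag

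miR-148a-3p: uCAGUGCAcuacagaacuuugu

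miR-148b-3p: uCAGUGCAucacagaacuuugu

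miR-152-3p: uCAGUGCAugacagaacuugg

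The miR-15/16 guides, here with miR-322-5p, share AGCAGCA, and miR-221 and miR-222 share GCUACAU. miR-27b-3p, with the seed UCACAGU, was among the abundant miRNAs bounded within 1.5-fold.

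miR-16-5p: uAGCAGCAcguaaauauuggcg

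miR-195a-5p: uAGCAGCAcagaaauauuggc

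miR-322-5p: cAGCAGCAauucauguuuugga

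miR-27b-3p: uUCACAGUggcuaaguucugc

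miR-221-3p: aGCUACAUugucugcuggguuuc

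miR-222-3p: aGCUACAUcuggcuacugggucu

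miR-10 and miR-196 guides come from the Hox clusters, and miR-99a-5p is shown beside miR-10. miR-183-5p had the largest difference of any tested miRNA. The seed of miR-10 is ACCCUGU and that of miR-99 ACCCGUA.

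miR-10a-5p: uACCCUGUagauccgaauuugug

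miR-10b-5p: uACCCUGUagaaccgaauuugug

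miR-99a-5p: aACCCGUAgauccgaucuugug

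miR-196a-5p: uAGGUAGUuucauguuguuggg

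miR-196b-5p: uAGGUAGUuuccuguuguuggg

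miR-183-5p: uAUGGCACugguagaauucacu

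In GRCm38, miR-183-5p lies at chr6:30169711-30169732 on the minus strand, and GENCODE annotates no other gene there on that strand. miR-196b-5p lies at chr6:52230129-52230150 on the minus strand within an exon of a Hoxa9 transcript. miR-10b-5p lies at chr2:74726074-74726096 on the plus strand within introns of Hoxd3 and Hoxd4. miR-30e-5p lies at chr4:120772660-120772681 on the minus strand in an intron of Nfyc, miR-148b-3p at chr15:103285185-103285206 on the plus strand in an intron of Copz1, and miR-152-3p at chr11:96850439-96850459 on the plus strand in an intron of Copz2. miR-221-3p and miR-222-3p lie close together at chrX:19146307-19146329 and chrX:19146901-19146923 on the minus strand, outside other genes on that strand.

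The values were the authors' normalized values, a per-library scaling of read counts, and each was a whole multiple of what 1 read was worth in its library. Recovered reads came to 11900000 to 35500000 in the ieET-1 libraries and to 1820000 to 29400000 in the ieCre libraries, so the ieET-1 libraries were deeper on average (24.4 ± 0.541 and 23 ± 1.35 on the log2 scale, SD, exact permutation p = 0.0175, adjusted p = 0.122 over 14 library measures). The library numbers fell in separate ranges, with 3 ieET-1 and 3 ieCre libraries numbered below 1000, and 4 ieET-1 and 3 ieCre libraries numbered 8000 or above. What the ranges stand for is not given. In the ieET-1 libraries 8987, 8990 and 8991, the normalized values summed to 1175679, 1328308 and 1331526, while those of the other 10 libraries summed to between 527118 and 997422. The libraries ieET-1 258 and ieCre 8 were left out before the comparison because they were nearly the same: their values had a Pearson correlation of 0.9999 across miRNAs, against 0.9963 for the next closest of 435 pairs. Of 537 miRNAs with at least 10 reads summed over the pair, none had more reads in ieET-1 258, 156 had equal numbers and 381 had more in ieCre 8.

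The miRNAs that define artery wall were present. The summed value of the 5 smooth muscle miRNAs (miR-143 and miR-145) ranged from 210997 to 700251 in ieET-1 libraries and 195660 to 397687 in ieCre libraries. The 6 entries listed as erythroid (miR-451a, miR-144 and miR-486) summed to 33033 to 311620 in ieET-1 and 5549 to 156451 in ieCre libraries. Most of that sum was miR-486-5p, counted in both of its nearly equal entries. Its first entry averaged 52861 in ieET-1 and 36279 in ieCre libraries. miR-451a averaged only 261 and 401, so the sum says little about miR-451a. The endothelial pair, both strands of miR-126, summed to 5939 to 22206 in ieET-1 and 5759 to 38673 in ieCre libraries. Liver miRNAs (both strands of miR-122) were at or near 0, at most 2.24 in ieET-1 and 0.459 in ieCre libraries. Markers of other tissues were present at lower levels. The 7 adipose miRNAs summed to 601.9 to 1034 in ieET-1 and 510.4 to 1243 in ieCre libraries. The 8 pancreatic miRNAs summed to 18.7 to 429.4 in ieET-1 and 26.8 to 163.7 in ieCre libraries, with miR-375-5p at 0 in all 13. The 17 epithelial miRNAs summed to 337.8 to 846.8 in ieET-1 and 344.1 to 1212 in ieCre libraries, and the 6 leukocyte miRNAs to 114.6 to 347.6 in ieET-1 and 131.3 to 356.7 in ieCre libraries. The 7 nervous tissue miRNAs summed to 186.2 to 591.2 in ieET-1 and 267.9 to 587.6 in ieCre libraries. Their share of reads averaged -4.82 ± 0.435 in ieET-1 and -4.16 ± 0.389 in ieCre libraries as log2 percent (SD), a difference of -0.67 (exact permutation p = 0.0175, adjusted p = 0.122). This p was the smallest of the marker lists. The shares of the other lists differed by -0.79 (endothelial) to 0.52 (erythroid), with exact permutation p of 0.129 or more and adjusted p of 0.473 or more. The 9 striated muscle miRNAs summed to 492.4 to 774.7 in ieET-1 and 453.8 to 817.2 in ieCre libraries, with miR-208a-3p at 0 in all 13. Their part in the results below was not tested.

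No miRNA passed the test for a difference between the genotypes at 16 days. Of the 870 miRNAs in the table, 354 reached a value of 1 in 8 or more of the 30 libraries and were tested. With limma (a linear model with moderated variances) on log2(value + 1), 0 of them passed an adjusted p of 0.05, which is 0%. The smallest adjusted p was 0.963. At an unadjusted p under 0.05 there were 11 miRNAs (3.11%), 4 with higher and 7 with lower values in ieET-1 arteries. On the recovered reads, the count model of edgeR passed 0, with 14 below an unadjusted 0.05, and that of DESeq2 0, with 18. For no miRNA did all 7 ieET-1 values lie above, or all below, the 6 ieCre values (0%).

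Most differences were small on the log2(value + 1) scale. The median difference, ieET-1 minus ieCre, was -0.05 on the log2(value + 1) scale and the median absolute difference was 0.18. On this scale the point estimate was under 1.5-fold for 330 of the 354 miRNAs (93.2%). It was beyond 2-fold for 4, namely miR-183-5p, miR-18a-5p, miR-6240 and miR-145a-3p. In edgeR on the recovered reads more miRNAs lay beyond 2-fold, among them miR-215-5p (log2 difference -1.34), miR-679-5p (-1.13) and miR-154-5p (-1.03). There miR-145a-3p was at 0.75, within 2-fold. The 95% confidence interval of each difference says what sizes the libraries leave possible, miRNA by miRNA and not for all at the same time. It lay within 2-fold either way for 255 miRNAs (72.0%), within 4-fold for 342 (96.6%) and within 1.5-fold for 42 (11.9%). Most miRNAs were therefore not bounded within 1.5-fold by these libraries. When scaled to all miRNA reads, 41.8% and 1.69% were within 2-fold and 1.5-fold. Among the 57 miRNAs with a mean value of 300 or more, 39 (68.4%) were bounded within 2-fold, and among the 99 with a mean under 3, 82 (82.8%). The added 1 pulls differences of scarce miRNAs toward 0, so an interval on this scale does not bound their true fold change.

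**Figure D1:**
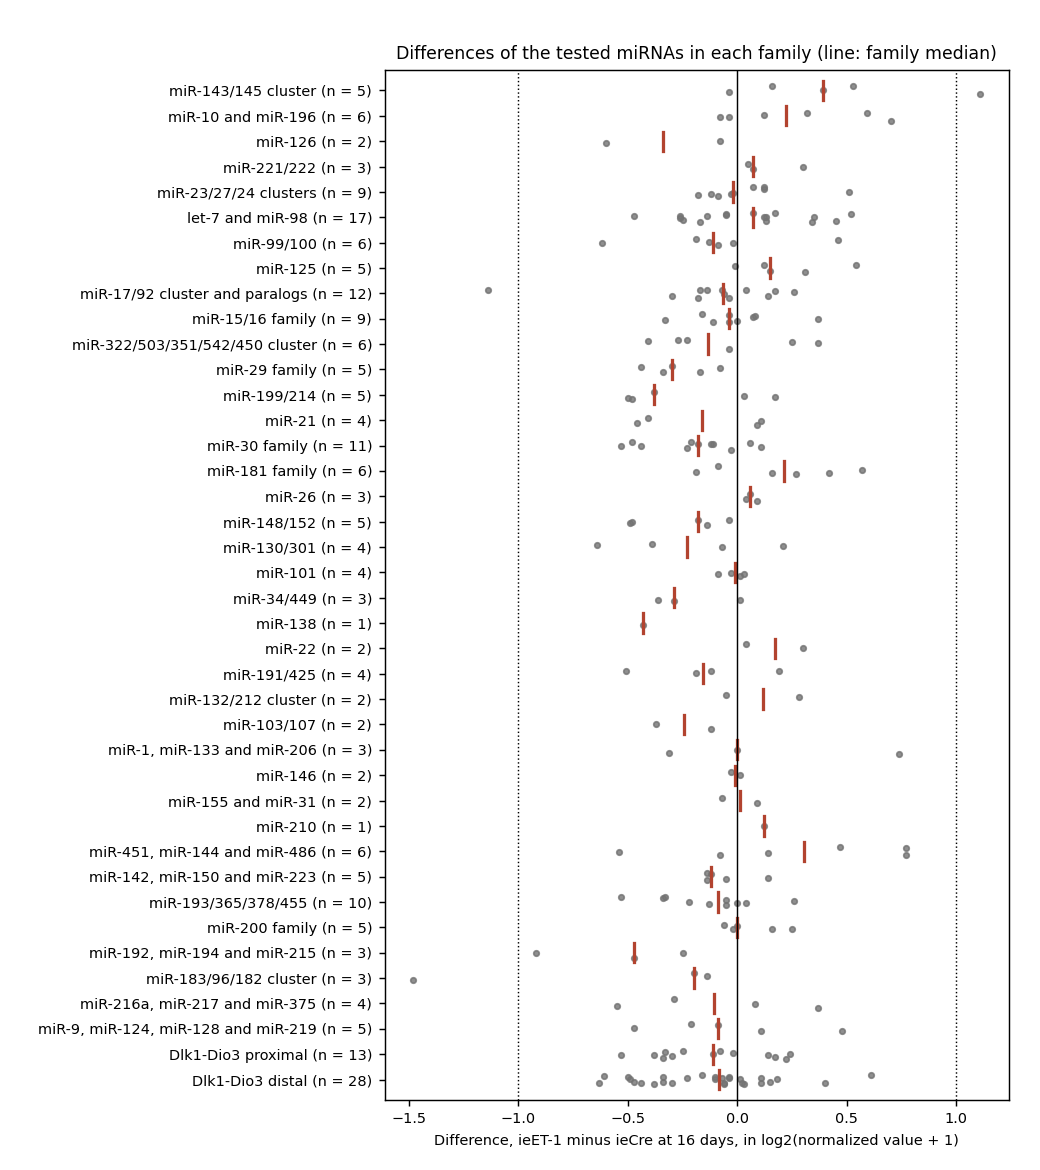
Difference, ieET-1 minus ieCre at 16 days in log2(value + 1), of each tested miRNA (grey points) in 40 families, with the family median (red line) and dotted lines at 2-fold. All 40 medians lie within 1.5-fold, and 3 points lie beyond 2-fold.

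Of the tested miRNAs, 229 belonged to 40 families or genomic clusters. All 40 family medians lay within 1.5-fold of no difference, beside a median of -0.05 over all 354. In 12 families every tested member had its interval within 2-fold. The sign of a family median near zero depended on the scaling. When values were instead scaled to all miRNA reads of the library, the median over all miRNAs moved to -0.23, and the number of miRNAs above zero was 85 in place of 149. Members are therefore best read against the median of all miRNAs under the same scaling.

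The smooth muscle cluster was the largest part of every library. miR-143-3p, which promotes the contractile state of smooth muscle cells, had a lowest, median and highest value of 209167, 285467 and 698688 in ieET-1 arteries, against 194243, 253044 and 396705 in ieCre arteries. The groups overlapped, and the 3 ieET-1 libraries with the largest summed values were the 3 highest for it. Its log2 difference was 0.39 ± 0.41 (SE), with an interval of -0.44 to 1.23 and limma adjusted p = 0.963. As a share of reads, which does not depend on the scaling, it took 41.5 ± 7.21% in ieET-1 and 36.7 ± 6.44% in ieCre libraries (SD, n = 7 and 6, exact permutation p = 0.237, adjusted p = 0.473).

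Its partner miR-145a-5p, made from the same primary transcript, ran from 787 to 1996 in ieET-1 and from 808 to 2058 in ieCre libraries, with medians of 1203 and 941. The log2 difference was 0.16 ± 0.24, and -0.06 when scaled to all reads. The passenger strand miR-145a-3p varied far more, from 130 to 1016 (median 514) in ieET-1 and from 96.7 to 954 (median 169) in ieCre libraries, a log2 difference of 1.11 ± 0.66. In the low-numbered ieCre libraries it stayed at or below 125, while among the ieET-1 libraries it was as low as 130 only in 257. The scarce strand miR-143-5p averaged 11.2 ± 2.83 in ieET-1 and 7.42 ± 1.90 in ieCre libraries (SD), with all 7 ieET-1 values above the ieCre median (log2 difference 0.53 ± 0.23, unadjusted p = 0.025, adjusted p = 0.963). Of the 5 cluster members 4 had a positive difference and the median was 0.39, or 3 of 5 and 0.18 when scaled to all reads.

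In the endothelial miRNAs, miR-126-5p and miR-126-3p came from the same hairpin, within the Egfl7 gene, and miR-126-3p is known for supporting vessel integrity. miR-126-3p had a lowest, median and highest value of 465, 689 and 960 in ieET-1 arteries, against 340, 805 and 1333 in ieCre arteries, a log2 difference of -0.08 ± 0.29. The ieET-1 values lay within the range of the ieCre values. miR-126-5p had 5474, 10514 and 21483 in ieET-1 against 5419, 17977 and 37723 in ieCre arteries. The 3 highest libraries were the ieCre libraries numbered 8000 or above, and the log2 difference was -0.60 ± 0.37 with an interval of -1.36 to 0.17. Within the low-numbered libraries the difference of miR-126-3p was 0.39 and within the high-numbered ones -0.57.

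miR-221 and miR-222 restrain cell cycle inhibitors and the Kit receptor in vascular cells. miR-221-3p ran from 52.4 to 73.4 in ieET-1 and from 48.4 to 92.4 in ieCre libraries, with medians of 60.2 and 58.0. Its interval, -0.41 to 0.50, left no more than a 1.41-fold increase or a decrease to 0.754 of the ieCre level. miR-222-3p had a log2 difference of 0.30 ± 0.20 and an interval of -0.12 to 0.71, and 6 of 7 ieET-1 values lay above the ieCre median.

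The miR-23/27/24 clusters, active in endothelial growth, were the most tightly bounded of the larger families, with 5 of 9 members inside 1.5-fold. miR-27b-3p was the ninth most abundant entry, with miR-486-5p counted in both of its entries. miR-27b-3p had values of 10586, 13944 and 21841 (lowest, median, highest) in ieET-1 arteries and 9872, 13309 and 18494 in ieCre arteries. Its interval ran from 0.798 to 1.39 of the ieCre level. miR-23b-3p had 605, 962 and 1079 in ieET-1 and 676, 873 and 1032 in ieCre arteries, with an interval of -0.39 to 0.35. miR-133a-3p, a muscle miRNA, was bounded as closely, from 0.776 to 1.29 of the ieCre level. miR-1a-3p, also of muscle, was wider, at 27.3 ± 16.1 in ieET-1 and 14.5 ± 6.14 in ieCre libraries, and its log2 difference was 0.01 in the low-numbered and 1.27 in the high-numbered libraries.

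**Figure D2:**
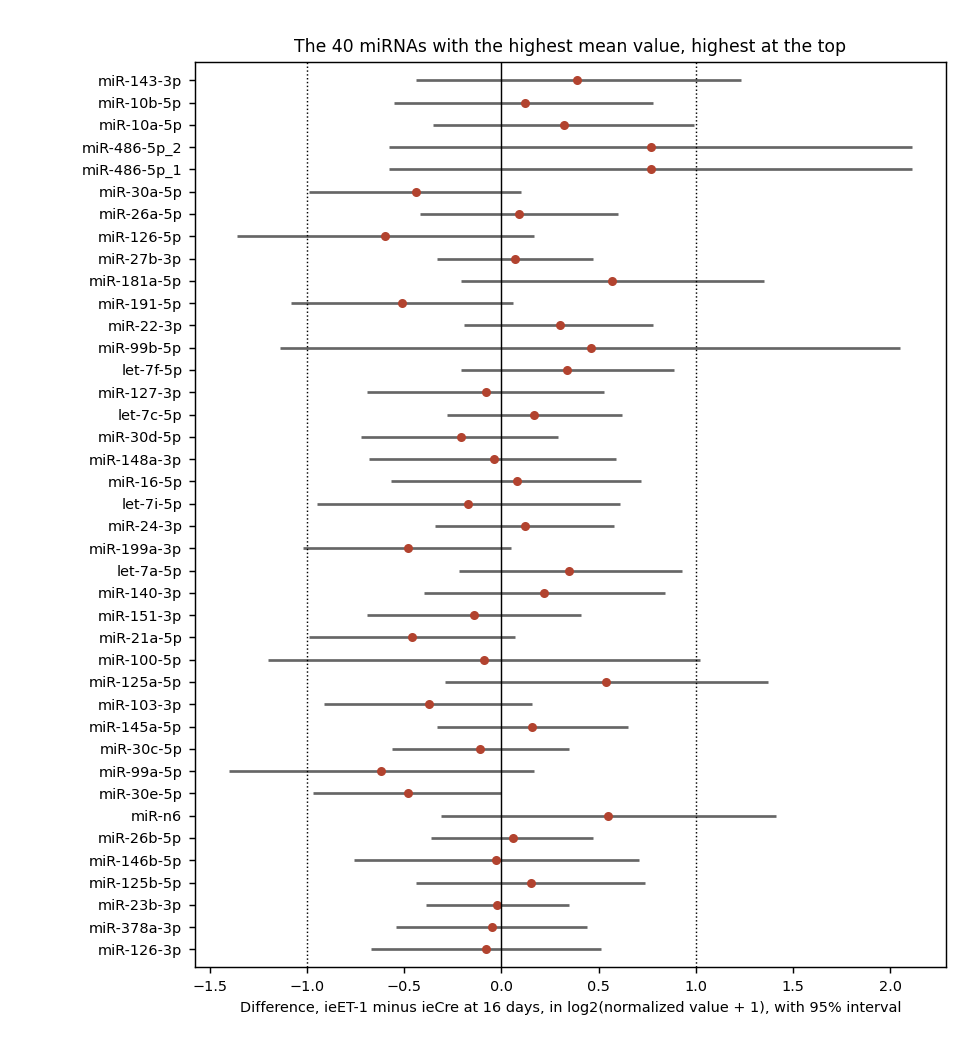
Difference, ieET-1 minus ieCre at 16 days in log2(value + 1), with its 95% confidence interval, for the 40 miRNAs of highest mean value, the most abundant at the top. Every interval reaches or crosses zero, and dotted lines mark 2-fold.

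The let-7 family, which restrains growth programs and includes reported regulators of endothelin-1 mRNA, had 17 tested strands with a median difference of 0.07. The 9 guides with the seed GAGGUAG had a median of 0.17, with 7 of 9 above zero, but -0.05 and 4 of 9 when scaled to all reads. let-7f-5p had values of 3437, 6393 and 8435 (lowest, median, highest) in ieET-1 arteries and 3225, 3978 and 7700 in ieCre arteries, a log2 difference of 0.34 ± 0.27. let-7e-5p had the largest difference of these guides, 0.52 ± 0.29 (interval -0.08 to 1.11), from 160 to 345 in ieET-1 and from 112 to 260 in ieCre libraries. let-7i-5p had a difference of -0.17 ± 0.38. All of these ranges overlapped.

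A list of 19 tested strands of miRNAs reported to act on endothelin-1 mRNA, which holds let-7, miR-125, miR-199a, miR-155 and miR-1 members, had a median of 0.13 with 13 above zero, and of -0.08 with 7 above zero when scaled to all reads. None of them had an unadjusted p under 0.05. Among these, miR-125a-5p averaged 1553 ± 565 in ieET-1 and 1127 ± 550 in ieCre libraries, a log2 difference of 0.54 ± 0.41. miR-125b-5p averaged 1087 ± 398 in ieET-1 and 971 ± 331 in ieCre libraries, a difference of 0.15 ± 0.29. miR-155-5p, an inflammatory miRNA, had a lowest, median and highest value of 10.1, 14.6 and 18.6 in ieET-1 against 10.8, 11.9 and 19.7 in ieCre arteries, a difference of 0.09 ± 0.27.

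miR-181 guides regulate inflammatory signalling in endothelium. The 4 that share ACAUUCA all had positive differences, with a median of 0.35 (0.13, and 3 of 4, when scaled to all reads). miR-181a-5p had values of 4748, 10400 and 18829 (lowest, median, highest) in ieET-1 and 2706, 6681 and 22114 in ieCre arteries, the last of these in ieCre 932, and a difference of 0.57 ± 0.38. miR-181c-5p was the less variable, at 201 ± 35.5 in ieET-1 and 153 ± 45.9 in ieCre libraries (SD), with all 7 ieET-1 values above the ieCre median. Its interval was -0.06 to 0.91 and its unadjusted p was 0.0867 in limma.

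miR-29 members target collagens and other matrix mRNAs. All 5 tested strands had negative differences and intervals within 2-fold, with a median of -0.30 (-0.45 when scaled to all reads). miR-29a-3p had values of 199, 229 and 379 in ieET-1 arteries and 135, 275 and 508 in ieCre arteries, a difference of -0.08 ± 0.27. miR-29b-3p averaged 15.7 ± 5.86 in ieET-1 and 22.2 ± 10.1 in ieCre libraries, with a difference of -0.44 ± 0.26. miR-29c-3p had -0.17 ± 0.27. Their within-range differences had opposite signs for miR-29a-3p, 0.11 in low-numbered and -0.24 in high-numbered libraries, and for miR-29c-3p, 0.13 and -0.51.

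The miR-199, miR-214 and miR-21 genes are active in fibroblasts and smooth muscle. miR-199a-3p had values of 1812, 2257 and 2766 (lowest, median, highest) in ieET-1 arteries and 1919, 3032 and 4424 in ieCre arteries. No ieET-1 library reached the ieCre median, but the groups overlapped, and the difference was -0.48 ± 0.26 with an interval of -1.02 to 0.05. miR-199a-5p from the same hairpins had medians of 211 in ieET-1 and 280 in ieCre arteries and highest values of 270 and 288, a difference of -0.38 ± 0.22. miR-199b-5p had -0.50 ± 0.27, and miR-214-3p, transcribed together with miR-199a, had 0.03 ± 0.32.

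miR-21a-5p, a miRNA raised in many growth and injury settings, had 988, 1788 and 2356 in ieET-1 and 1483, 2066 and 3838 in ieCre arteries. Its difference was -0.46 ± 0.26 (interval -0.99 to 0.07), and it was -1.03 in the low-numbered but -0.01 in the high-numbered libraries.

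The miR-30 guides are abundant in endothelium and heart. Of 11 tested strands 9 had negative differences (all 11 when scaled to all reads), with a median of -0.18. miR-30a-5p was the sixth most abundant entry, with miR-486-5p counted in both of its entries. miR-30a-5p had values of 15194, 28408 and 48441 in ieET-1 and 21128, 34192 and 65461 in ieCre arteries, a difference of -0.44 ± 0.27. miR-30e-5p had 655, 927 and 1658 in ieET-1 against 963, 1406 and 2191 in ieCre arteries, with 6 of 7 ieET-1 values below the ieCre median, a difference of -0.48 ± 0.24 (unadjusted p = 0.05, adjusted p = 0.963 in limma). Within the low-numbered and the high-numbered libraries the difference of miR-30e-5p was -0.50 and -0.56. miR-30c-5p, with the same seed, differed by -0.11 ± 0.22 and was bounded within 1.5-fold.

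The miR-148 and miR-152 members all lay below zero, with a median of -0.18 over 5 strands and of -0.48 over the 3 guides with the seed CAGUGCA. The most abundant, miR-148a-3p, ran from 2248 to 6081 in ieET-1 and from 2970 to 5674 in ieCre libraries, a difference of -0.04 ± 0.31. miR-148b-3p averaged 165 ± 63.2 in ieET-1 and 231 ± 86.6 in ieCre libraries, a difference of -0.49 ± 0.24. miR-152-3p had -0.48 ± 0.36, and -0.19 without ieCre 10. For miR-148b-3p and miR-152-3p the difference was -0.98 and -1.12 in low-numbered libraries, beside -0.11 and 0.06 in high-numbered ones.

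The growth-related miR-15/16 and miR-17/92 families had medians of -0.04 and -0.06. miR-16-5p ran from 2004 to 4826 in ieET-1 and from 1645 to 5373 in ieCre libraries, a difference of 0.08 ± 0.32. miR-195a-5p, a member of the same seed family, was bounded between 0.703 and 1.34 of the ieCre level. In the miR-17/92 list, 11 of 12 members lay within 2-fold, and miR-18a-5p was the exception. The miR-26 guides, which also restrain growth, had differences of 0.04 to 0.09, with miR-26a-5p at 19980 ± 4964 in ieET-1 and 19098 ± 6295 in ieCre libraries.

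Some miRNAs are known to respond to signals downstream of vasoconstrictor receptors or to low oxygen. miR-132-3p, induced through Gq-coupled receptors in other settings, had values of 5.25, 6.35 and 14 in ieET-1 arteries and 4.35, 7.85 and 19.3 in ieCre arteries, a difference of -0.05 ± 0.31 and an interval of -0.69 to 0.59. Its cluster partner miR-212-3p, with medians of 1.18 in ieET-1 and 0.693 in ieCre libraries, had a difference of 0.28 ± 0.26, and 6 of 7 ieET-1 values lay above the ieCre median. The hypoxia-responsive miR-210-3p had 17.5, 22.9 and 29.7 in ieET-1 against 15.5, 23 and 26 in ieCre arteries, and its interval, 0.834 to 1.41 of the ieCre level, was among the narrowest. Both miR-146 members had differences between -0.03 and 0.01, and the 5 leukocyte strands of miR-142, miR-150 and miR-223 between -0.14 and 0.14.

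Hox-cluster miRNAs were abundant. miR-10b-5p, the second most abundant miRNA, had values of 92652, 144502 and 304411 in ieET-1 arteries and 103138, 129669 and 294324 in ieCre arteries, a difference of 0.12 ± 0.33, and miR-10a-5p one of 0.32 ± 0.33. miR-196a-5p and miR-196b-5p had larger differences, 0.70 ± 0.40 and 0.59 ± 0.32, with 6 and 7 of 7 ieET-1 values above the ieCre median. For miR-196a-5p the low values were those of the high-numbered ieCre libraries, 5.13 to 22.5, while the low-numbered ieCre libraries held 43.5 to 71.4. Its difference was accordingly -0.22 in low-numbered and 1.67 in high-numbered libraries, and that of miR-196b-5p -0.13 and 1.30.

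The 5 widest intervals were those of miR-141-3p, miR-200a-3p and miR-200b-3p, of miR-375-3p and of miR-6243, and those of erythroid miRNAs were wide too. miR-486-5p is grouped here with the erythroid miRNAs and listed in 2 nearly equal entries. The first entry averaged 52861 ± 47963 in ieET-1 and 36279 ± 27089 in ieCre libraries (SD), a difference of 0.77 ± 0.66. It was 0.11 without ieCre 10, where miR-486-5p was lowest (2405), and 0.44 without ieET-1 8991, where it was highest (155373). miR-451a, of the same list, averaged 261 ± 132 in ieET-1 and 401 ± 229 in ieCre libraries, a difference of -0.54 ± 0.52. Its highest value of all, 705, was in ieCre 10, the library where miR-486-5p was lowest. None of the 5 miR-200 members, markers of epithelium, was bounded within 2-fold, and miR-141-3p had an interval of -2.05 to 1.93. The pancreatic and endocrine miR-375-3p ran from 17.3 to 416 in ieET-1 libraries, with medians of 59.9 in ieET-1 and 51.6 in ieCre libraries, and its interval was -1.54 to 2.28.

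The imprinted Dlk1-Dio3 region yields many miRNAs from the maternal chromosome. Its 13 proximal and 28 distal strands had medians of -0.11 and -0.09, with 9 and 19 of them below zero, beside 57.9% of all tested miRNAs below zero. miR-127-3p, the most abundant of the proximal group, averaged 4864 ± 1259 in ieET-1 and 5293 ± 1922 in ieCre libraries. miR-154-5p and miR-679-5p of the distal group were among the 11 with an unadjusted p under 0.05.

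The 11 miRNAs with the smallest p-values were mostly scarce, and 5 of them came from the 99 miRNAs with a mean value under 3. All had a limma adjusted p of 0.963. The 4 with positive differences were miR-3968, miR-423-3p, miR-143-5p and miR-1964-3p. miR-3968 had values of 20.8, 25.9 and 41.9 (lowest, median, highest) in ieET-1 arteries and 6.41, 13.7 and 33.0 in ieCre arteries, a difference of 0.92 ± 0.33. Every ieET-1 value lay above the ieCre median, and the groups overlapped. miR-423-3p averaged 9.27 ± 6.05 in ieET-1 and 4.43 ± 3.73 in ieCre libraries, a difference of 0.96 ± 0.40.

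The 7 with negative differences were led by miR-183-5p, a member of a sensory-organ cluster. In ieET-1 arteries its values were 22.6, 29.3, 35.0, 35.0, 59.3, 67.8 and 211, and in ieCre arteries 36.7, 91.7, 118, 168, 190 and 558, a difference of -1.48 ± 0.55 (interval -2.60 to -0.35, unadjusted p = 0.0118). Of the ieET-1 libraries only 8991 lay above the ieCre median, and the difference was -1.51 in low-numbered and -1.64 in high-numbered libraries. miR-182-5p, from the same cluster, was at 189 ± 93 in ieET-1 and 211 ± 91.6 in ieCre libraries, a difference of -0.20 ± 0.52.

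For 3 of the others 1 ieCre library set much of the difference. miR-18a-5p, of the growth-promoting miR-17/92 cluster, had values of 0.37 to 2.89 in ieET-1 and 0.656 to 28 in ieCre libraries, and its difference of -1.14 ± 0.50 became -0.62 without ieCre 10. miR-154-5p had -0.61 ± 0.26, and -0.36 without ieCre 10. miR-301b-3p had -0.64 ± 0.27, and -0.38 without ieCre 9957. On the recovered reads of all 13 libraries, edgeR gave larger log2 differences: -2.30 for miR-18a-5p, -1.03 for miR-154-5p and -1.09 for miR-301b-3p. miR-218-5p, an abundant member of this group that is hosted by Slit genes, had 53.4, 88.4 and 121 in ieET-1 and 84.5, 114 and 209 in ieCre arteries, with 6 of 7 ieET-1 values below the ieCre median and a difference of -0.52 ± 0.24. miR-679-5p and miR-450b-5p had differences of -0.63 and -0.41.

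**Figure D3:**
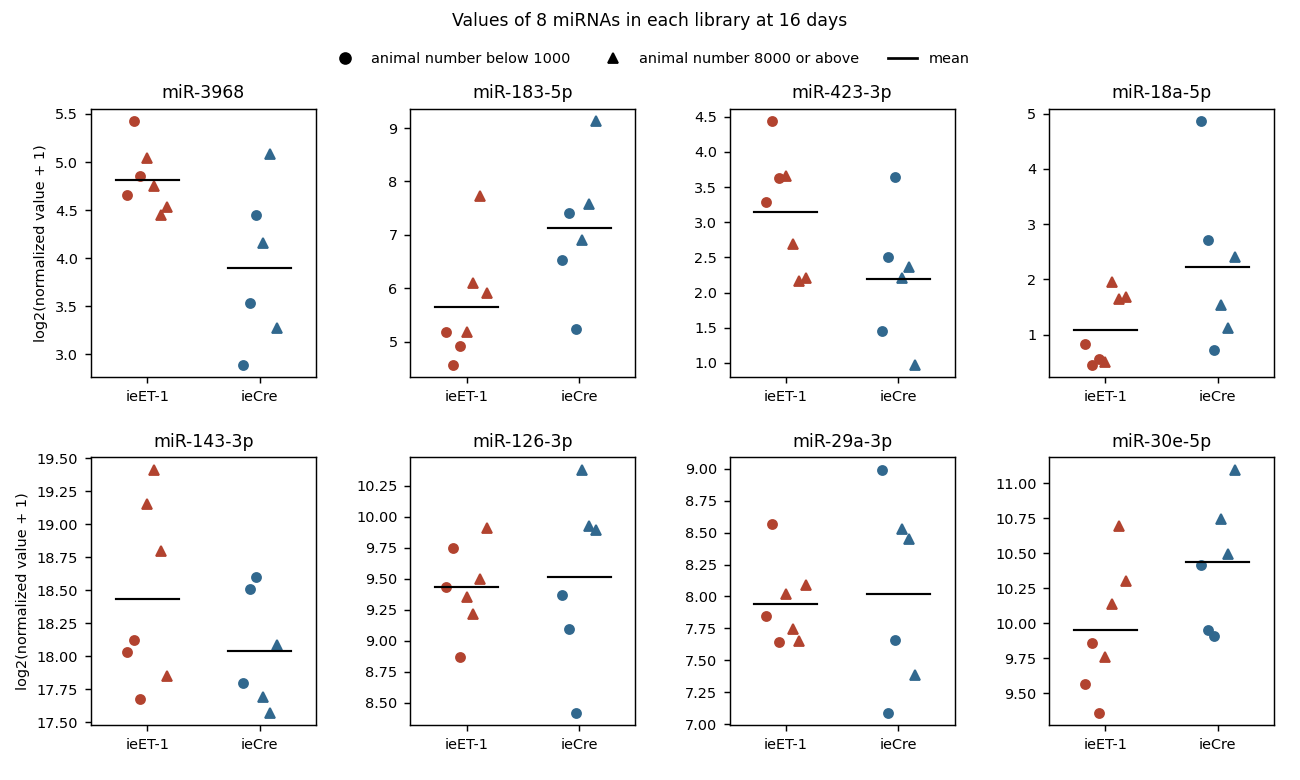
log2(value + 1) of 8 miRNAs in each of the 7 ieET-1 (red) and 6 ieCre (blue) libraries at 16 days, with circles for library numbers below 1000, triangles for 8000 or above, and a line at the group mean. The genotypes overlap in every panel, as for miR-183-5p, where ieET-1 8991 at 211 lies above 5 of the 6 ieCre libraries.

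Ratios of miRNAs within a library do not depend on its scaling. Of 8 ratios compared, 0 passed after adjustment. The ratio of miR-21a-5p to miR-143-3p came nearest, with a log2 ratio of -7.78 ± 0.45 in ieET-1 and -6.93 ± 0.71 in ieCre libraries (SD), a difference of -0.85 with an interval of -1.57 to -0.14 (exact permutation p = 0.0245, adjusted p = 0.196). It was -0.67 in low-numbered and -1.03 in high-numbered libraries. The ratio of miR-199a-3p to miR-143-3p differed by -0.88 (exact permutation p = 0.0705, adjusted p = 0.249), and that of miR-126-5p to miR-126-3p by -0.52 (exact permutation p = 0.0932, adjusted p = 0.249). In low-numbered and high-numbered libraries the miR-199a-3p ratio differed by -0.06 and -1.57, and the miR-126-5p ratio by -0.61 and -0.52. The other 5 ratios differed by -0.47 to 0.20, with adjusted exact permutation p-values of 0.715. Each of these had opposite signs in the low-numbered and the high-numbered libraries, as miR-126-3p to miR-143-3p with 0.75 and -1.60.

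**Figure D4:**
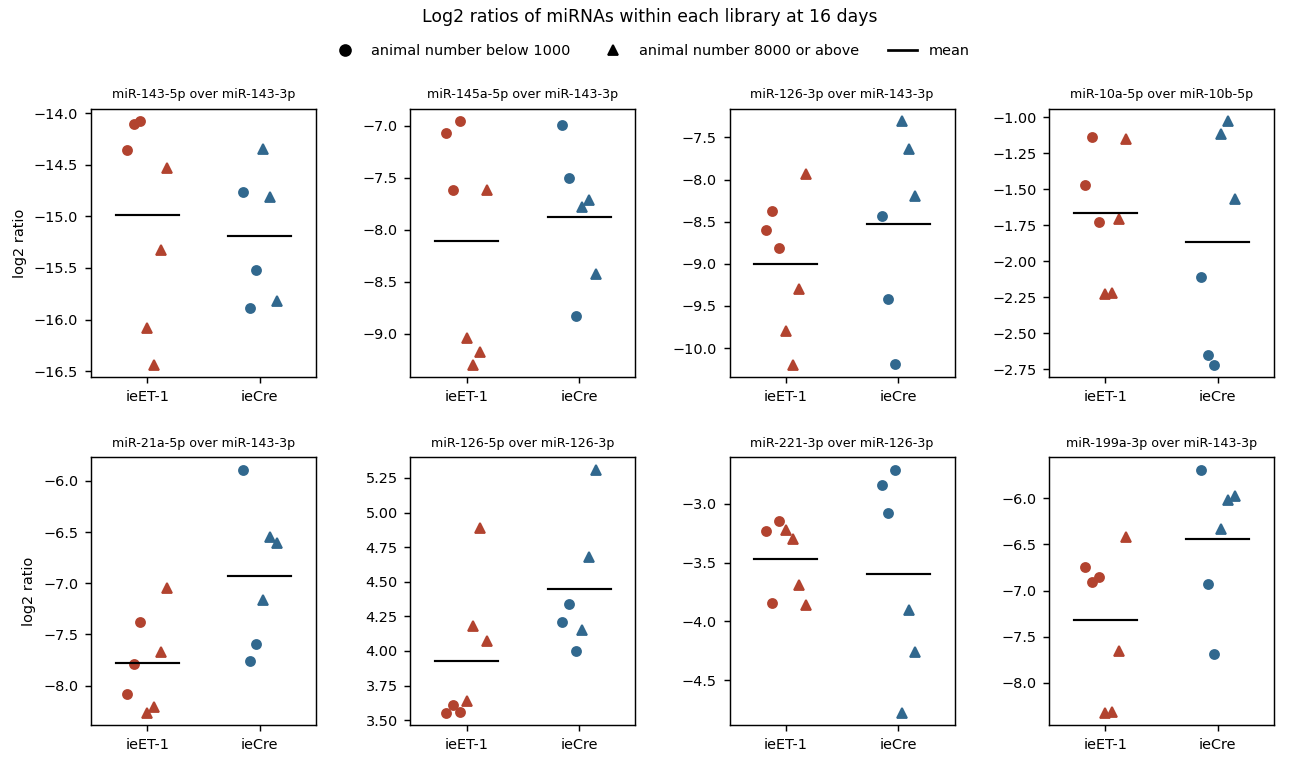
Log2 ratio of 8 pairs of miRNAs within each of the 7 ieET-1 (red) and 6 ieCre (blue) libraries at 16 days, with circles for library numbers below 1000, triangles for 8000 or above, and a line at the group mean. The means of miR-21a-5p over miR-143-3p are -7.78 in ieET-1 and -6.93 in ieCre libraries, and the groups overlap.

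More miRNAs were called for the range of the library number than for the genotype. With range as a term beside genotype, limma called 45 of 354 miRNAs (12.7%) as different between libraries numbered 8000 or above and those below 1000, 10 higher and 35 lower, with a median absolute difference of 0.35. This count was 27 without ieET-1 257. Examples, chosen after their values were seen, are miR-434-3p at -2.37 ± 0.37 (log2 ± SE, adjusted p = 0.000233), miR-144-3p at 2.44 ± 0.48 (adjusted p = 0.00117), let-7b-5p at -0.92 ± 0.17 (adjusted p = 0.00117) and miR-126-5p at 1.18 ± 0.31 (adjusted p = 0.0121). With range in the model the genotype still gave 0 calls (0%), with 26 at an unadjusted p under 0.05 and a smallest adjusted p of 0.67.

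The genotype difference often had opposite signs in the ranges. It had the same sign in both for 164 of 354 miRNAs (46.3%), 75 above and 89 below zero. Within the low-numbered libraries, 3 against 3, the genotypes did not overlap for 65 miRNAs (18.4%), and within the high-numbered libraries, 4 against 3, for 23 (6.50%). Over all 13 libraries none of these separations remained. Groups of so few libraries can also separate by chance, and how often was not computed. The test of the difference between the ranges passed 0 of 354 (0%), 29 were below 0.05 unadjusted, and there was a smallest adjusted p of 0.539 in limma.

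**Figure D5:**
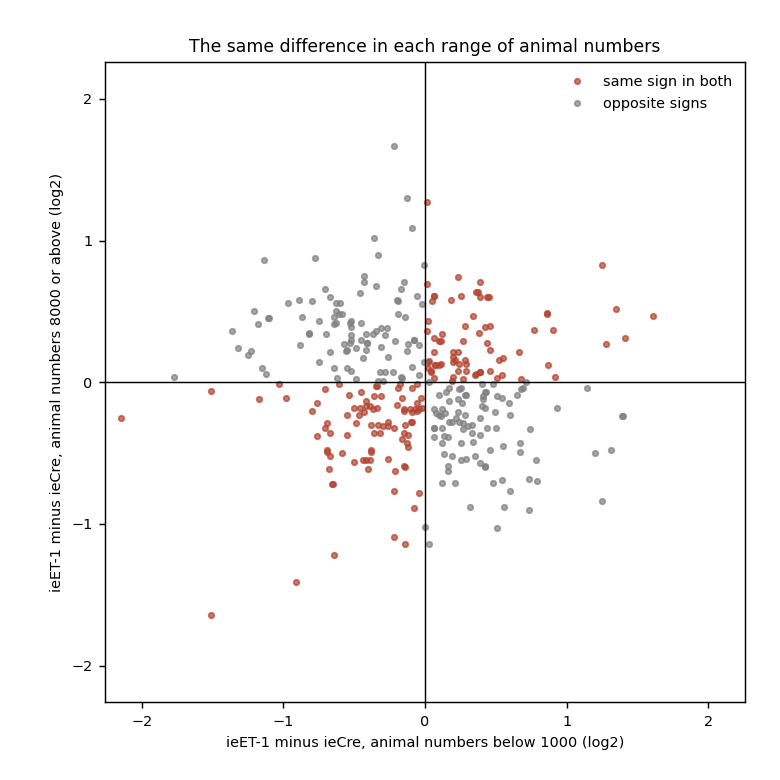
Difference, ieET-1 minus ieCre at 16 days in log2(value + 1), of each of the 354 tested miRNAs within libraries numbered below 1000 (x axis, 3 against 3) and within those numbered 8000 or above (y axis, 4 against 3). Points in red share their sign in both ranges (164 of 354), and those in grey do not.

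The genotype difference at 16 days was also set against that at 3 months, in libraries of other mice. The interaction test passed 0 of 354 (0%), 25 were below 0.05 unadjusted, and there was a smallest adjusted p of 0.553 in limma. For miR-183-5p the difference at 16 days minus that at 3 months was -2.06 (adjusted p = 0.553), and for miR-143-3p it was 0.70 (adjusted p = 0.73). A p-value above the threshold does not show that the times were alike.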

How the data were processed

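Small RNA of mesenteric arteries was sequenced by the submitters, and 1 table of miRNA values for the whole series was deposited. The values are a normalized signal made by the authors: each was a whole multiple (within 0.001 of a read) of the smallest value above 0 in its library, in 100% of values, so read counts were recovered. Per the submitters' processing notes, the tools included edgeR 3.6.8, R 3.2.3, STAR 2.3.1, bcl2fastq 1.8.4 and FastQC. The role of each tool, the genome build and the scaling method were not given in the sources used here. Columns were matched to 30 of the 32 labelled samples by genotype, time and number. The other 2 labelled samples were not analysed here. Library numbers are taken from the titles and treated as separate mice, as the stated 8 per group allows.

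miRNAs that reached 1 in 8 or more of the 30 libraries were tested with limma 3.58.1 in R 4.3.3 (moderated variances with a trend, two-sided, Benjamini-Hochberg adjustment over 354 miRNAs) on log2(value + 1), as 4 group means over 28 libraries. The pair ieET-1 258 and ieCre 8 was left out. Intervals of single miRNAs are from the same fit. The interval of a ratio is a t interval with pooled variance over the 13 libraries compared at 16 days. edgeR 4.0.16 and DESeq2 1.42.0 on the recovered reads were alternatives, and the procedure was tested on simulated data. Library measures and ratios were compared by exact permutation over 1716 splits, for which the smallest p is 0.000583. Other alternatives varied the pseudocount, filter, scaling, weights, depth and libraries.

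The members and lists were chosen with earlier results of these data known. Named miRNAs are, by rule, the 10 most abundant, the 8 with the smallest p in each direction, 3 abundant members and the one with the smallest p of each list, the 5 narrowest and 5 widest intervals, and members of ratios; other names are given for their families or, where said, were chosen after their values were seen. One read was worth 0.0185 to 0.112 in ieET-1 and 0.0204 to 0.48 in ieCre libraries, which sets the precision of scarce miRNAs. Reads carry no molecular identifiers.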

Additional observations from a re-analysis of the deposited data

Results flagged for a closer look

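In the miRNAs whose values are described by library, in the ratios and in the library measures, 154 groups of values were examined for a highest or lowest library that lay far from its neighbour (Dixon's test at the 95% level), and 13 were found, where chance gives about 5% of groups. In ieET-1 arteries these were miR-29a-3p in library 256 (379), miR-183-5p and miR-486-5p (first entry) in library 8991 (211 and 155373), miR-375-3p in library 257 (416) and miR-450b-5p in library 8990, which was the lowest (0.262). In ieCre arteries, library 932 was highest for miR-181a-5p (22114), miR-423-3p (11.5) and miR-148a-3p (5674). ieCre 10 was highest for miR-18a-5p (28) and miR-154-5p (7.71). ieCre 9957, the library with the fewest reads, was highest for miR-183-5p (558) and miR-301b-3p (6.72), and ieCre 8754 for miR-141-3p (69.6).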

How the results depend on the processing

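The genotype comparison called 0 miRNAs in each of 35 alternatives, with 4 to 43 at an unadjusted p under 0.05 where the filter was kept and a smallest adjusted p of 0.0574 (array weights). No paired analysis was possible because the library numbers do not repeat across the groups. The share of miRNAs bounded within 2-fold (72.0%) was 41.8% when scaled to all miRNA reads, 27.1% within libraries below 1000 and 39.0% within those of 8000 or above, and 62.4% to 72.9% leaving out 1 library at a time. It was 50% with DESeq2, 58.8% with reads thinned to equal depth, and 60.7% and 84.7% with pseudocounts of 0.5 and 5. With the near-identical pair kept it was 78%, and with no filter 88.1%. These results are given as shares of the miRNAs tested, in place of counts, a choice made after their values were seen, since a filter changes how many are tested. As counts, the change with the filter passes 1.5 times: 255 of 354 were within 2-fold, against 761 of 864 with no filter and 68.8% of 186 with a filter at 10, and 42 were within 1.5-fold, against 515 and 23. The share within 1.5-fold (11.9%) was 6.78% and 52.5% with pseudocounts of 0.5 and 5, 59.6% with no filter, 1.69% scaled to all reads, 20.6% with array weights, 5.93% with log2 reads as a term, 0.565% and 0.282% within the low and the high range, 24.6% with the near-identical pair kept, 20.3% with only ieET-1 258 left out, 4.80% with reads thinned to equal depth, 6.21% with DESeq2, and 7.91% to 12.4% leaving out 1 library at a time. edgeR gave no interval. The test of genotype by range called 0, but 9 with array weights. The range called 45, but 27 with a filter at 10, 78 scaled to all reads, 115 with array weights, 68 with the 13 libraries alone, 80 with the pair kept, and 27 to 58 leaving out 1 library at a time. miRNAs whose groups did not overlap numbered 0, but 65 and 23 within the low and the high range, 1 scaled to all reads, and 0 to 1 leaving out 1 library. Of the library measures 0 passed, and 0 to 1 leaving out 1 library (1 without ieCre 8754). miR-196b-5p reversed to -0.13 within the low range. Of the named miRNAs, 51 kept their sign in all settings and 85 changed it in some. The cause of these changes was not tested. One read was worth up to 0.48 in ieCre 9957, and miRNAs below that value could not be resolved there.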
